A study of Drosophila melanogaster with 48 samples.

Results

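Cells carrying the Prospero protein were compared with cells lacking it, both sorted from Drosophila melanogaster embryos 6 to 8 h after egg laying (6-8h AEL). The members were chosen by their labels and were 4 of the 48 libraries of the series, with 2 replicates of Pros-positive cells and 2 of Pros-negative cells. All 4 came from the line vnd-lexA/VC:FNLDD in a yellow-white background. Its genotype joined y1 w1118 with M{3x vnd-lexA:Cit}ZH-51C as one transgene and P{vnd:FNLDD} as another, so both fractions carried the same vnd transgenes. The sort used an antibody to the endogenous Prospero protein, on dissociated cells that had been fixed with formaldehyde. The labels give the tissue of both fractions as embryonic neuroblasts, but the Pros-negative fraction was the unmarked remainder of the embryo. The methods call the replicates biological duplicates. The labels do not say how many embryos or separate collections stand behind them, and p-values measure only the spread between such samples. Pros-positive and Pros-negative cells of the same line at 4-6h AEL (4 libraries) and Elav-positive and Elav-negative cells at 6-8h AEL (4 libraries) were used for comparison. The Elav libraries came from other fly lines, ind_1.4::GFP for replicate 1 and yw for replicate 2.

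Neuroblasts are the neural stem cells of the fly. They leave the neurogenic ectoderm, divide asymmetrically and bud off ganglion mother cells, which divide once more into neurons or glia. Prospero is a homeodomain protein that is made in the neuroblast, held at its basal cortex by the adaptor Miranda, and handed to the ganglion mother cell, where it enters the nucleus and ends self-renewal. Successive daughters receive different fates because the neuroblast passes through a series of temporal transcription factors, beginning with Hunchback and Krüppel. Prospero is also made outside the central nervous system, in support cells of peripheral sense organs among others, so a sort on this protein can hold more than one kind of cell.

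Total estimated reads were 31265244 and 30613599 in the Pros-positive replicates 1 and 2, and 37916777 and 50145015 in the Pros-negative replicates 1 and 2. Values are given in this replicate order throughout, as CPM, that is reads scaled to a common library total adjusted by TMM factors. The correlation of log2 CPM between replicates, across genes, was 0.930 in Pros-positive and 0.971 in Pros-negative cells. The Pros-positive libraries differed in composition. Over the 6957 genes with at least 10 CPM the median ratio of replicate 1 to replicate 2 was 1.43 in CPM and 1.10 in TPM, which also adjusts for transcript length, against 0.946 and 1.17 over 7062 genes in the Pros-negative pair. Genes of chemosensory receptors, a group typical of adult sense organs, had a median of 0.584 and 4.56 TPM in the Pros-positive and 3.57 and 2.11 TPM in the Pros-negative libraries. The part of this difference in the results was not tested beyond adding it to the fit as a covariate, which moved the counts of enriched and depleted genes from 388 and 223 to 604 and 575.

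The 3 markers of the lineage separated the fractions. The gene pros itself (FBgn0004595, chr3R:11328480-11407627, plus strand in BDGP6.54 with 1-based positions, overlapping lncRNA:CR46009 on that strand) was read at 6747 and 4624 CPM in Pros-positive cells and at 138 and 159.6 CPM in Pros-negative cells (log2 fold change 5.26 ± 0.55 SE, edgeR adjusted p = 4.06e-07). The zinc finger gene nerfin-1 (FBgn0028999, chr3L:909112-912319, plus strand), which acts in ganglion mother cells and young neurons, was at 2625 and 1993 against 40.002 and 43.1 CPM (log2 fold change 5.80 ± 0.56 SE, edgeR adjusted p = 1.55e-07). The Snail-family gene wor (FBgn0001983, chr2L:15423297-15425580, minus strand), a marker of neuroblasts, was at 506 and 427 against 17.6 and 19.3 CPM (log2 fold change 4.66 ± 0.47 SE, edgeR adjusted p = 2.68e-07). For all 3 genes both Pros-positive libraries lay far above both Pros-negative libraries. By TPM nerfin-1 ranked 102 and pros ranked 126 of 13789 protein-coding genes by mean level in Pros-positive cells, and in Pros-negative cells pros ranked 5037.

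Nearly all of the pros signal in TPM came from a pair of annotated transcripts. The transcript pros-RJ was at 649 and 633 TPM in Pros-positive and at 16.1 and 15.5 TPM in Pros-negative cells, and pros-RK was at 388 and 342 TPM against 8.89 and 9.05 TPM. The share of pros-RJ in the TPM of the gene was 62.3% and 64.5% in Pros-positive cells and 61.5% and 60.5% in Pros-negative cells. The proportions of this pair were thus close in both fractions while the level differed. The minor transcripts had larger shares in Pros-negative cells. For pros-RM the share was 0.256% and 0.229% against 1.9% and 1.37%, and for pros-RI 0.0349% and 0.182% against 2.39% and 2.18%. For pros-RH it was 0.148% and 0.156% against 0.301% and 0.679%. Transcripts of a gene overlap, so these estimates rest on Salmon's assignment of shared reads.

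Markers of other cell types were summed in the same way. The 3 lineage markers summed to 9878 and 7044 CPM in Pros-positive against 196 and 222 CPM in Pros-negative cells. The 5 neuronal markers summed to 7924 and 5246 against 672 and 719 CPM, and all 5 were enriched. The 4 glial markers summed to 825 and 535 against 399.8 and 443 CPM, and 1 of them, repo, was enriched. The midline marker sim was at 22.2 and 16.8 against 12.05 and 16.9 CPM and was not called, and its fractions overlapped. The summed markers of neurons and glia were thus higher in Pros-positive cells, and those of glia by less. The glial markers gcm, loco and moody were not called. The mean TPM of moody was lower in Pros-positive cells (47.2 against 61.2). The 3 sense organ markers summed to 1367 and 763 against 50.985 and 49.3 CPM, and 2 of them, nompA and sv, were enriched. The other, amos, was not called and had the lower mean TPM in Pros-positive cells (3.74 against 11.7). Mesoderm (5 markers, 4 depleted) summed to 535 and 307 against 1122 and 1364 CPM. Haemocytes (4 markers, 3 depleted) summed to 298 and 203 against 998 and 969.5 CPM. Markers of these non-neural cells were therefore lower, but not absent, in Pros-positive cells. Germ cells (2 markers, both depleted) summed to 31.1 and 17.2 against 276 and 114 CPM, and dorsal ectoderm (2 markers, both depleted) to 144 and 84.5 against 412 and 471 CPM. Trachea (2 markers, 1 depleted) summed to 99.024 and 73.5 against 171 and 214 CPM, and endoderm (2 markers, none called) to 271 and 173 against 329 and 400.3 CPM. No marker was at 0 in a group, and the part of these other cells in the results below was not tested. In sorted bulk RNA, fewer cells of a type and less RNA per cell cannot be told apart.

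**Figure D1:**
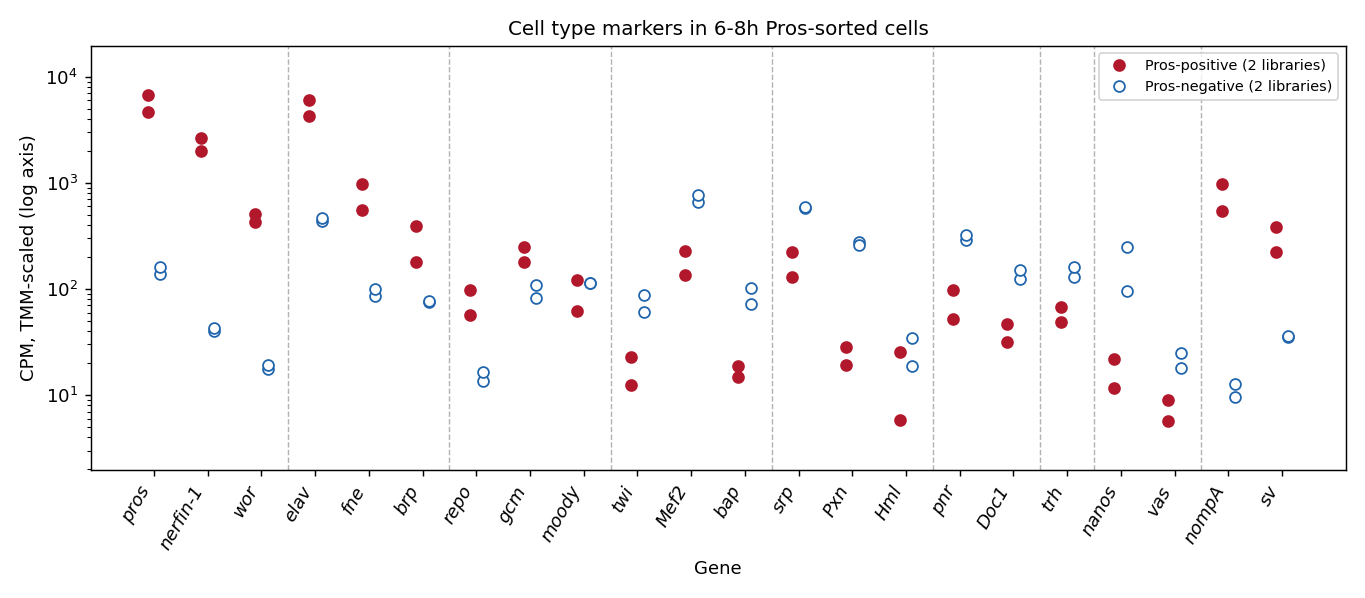
CPM (log axis) of marker genes in 6-8h AEL cells, with 1 point per library, filled for the 2 Pros-positive and open for the 2 Pros-negative libraries. Dashed lines separate, from left to right, markers of the neuroblast lineage, neurons, glia, mesoderm, haemocytes, dorsal ectoderm, trachea, germ cells and sense organs. The filled points of pros, nerfin-1, wor, elav and nompA lie far above the open ones, those of mesoderm and germ cell genes lie below, and those of Hml and moody overlap with the open ones.

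Across the genome, 388 of 17109 genes tested were enriched in Pros-positive cells (2.27%) and 223 were depleted (1.3%), by edgeR with Benjamini-Hochberg adjustment (adjusted p under 0.05 and a log2 fold change beyond 1 in either direction). Both Pros-positive libraries lay above both Pros-negative libraries for 3175 genes (18.6%) and below them for 4020 genes (23.5%). Over all genes tested the log2 fold change had a median of -0.07. The enriched genes had a median log2 fold change of 2.05, and 205 of them exceeded 2, 73 exceeded 3 and 19 exceeded 4. The depleted genes spanned a narrower range, with a median size of 1.64, 66 beyond 2 and 13 beyond 3. By gene type, 359 of 13789 protein-coding genes and 28 of 2408 long noncoding RNA (lncRNA) genes were enriched, and 219 and 4 were depleted. The counts depended on single libraries. Of the 388 enriched genes, 154 and 357 stayed called without Pros-positive replicate 1 or 2, and 164 and 109 without Pros-negative replicate 1 or 2, with 95 called in all 4 of these fits. Of the 223 depleted genes, 63 and 26 stayed called without Pros-positive replicate 1 or 2, and 71 and 46 without Pros-negative replicate 1 or 2, with 13 called in all 4. In each of these fits the single remaining library of its group is assumed to vary like the libraries of the other groups. For the gene groups below, the numbers that stayed called are given in that order. Some genes belong to several of these groups, such as eya, so the counts of different groups are not independent.

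Among protein-coding genes with at least 10 CPM, the largest enrichment was that of nompA (FBgn0016047, chr2R:11310335-11318676, minus strand), which encodes an extracellular cap protein made by the support cells of mechanosensory organs. It was at 981 and 538 CPM in Pros-positive and 12.7 and 9.61 CPM in Pros-negative cells (log2 fold change 6.09 ± 0.75 SE, edgeR adjusted p = 4.28e-06). The pair-rule gene ftz (FBgn0001077, chr3R:6864324-6866244, plus strand), which is expressed again in neurons and their precursors after segmentation, was at 484 and 365 against 13.6 and 6.90 CPM (log2 fold change 5.37 ± 0.46 SE, edgeR adjusted p = 2.58e-08). Both genes thus stood next to pros and nerfin-1 at the top of the list, which the naming rule limited to genes without overlap between fractions. Several other genes near the top encode transcription factors of the nervous system. The bHLH gene tap was at 320.1 and 236 against 7.32 and 9.67 CPM (log2 fold change 5.03 ± 0.53 SE, edgeR adjusted p = 4.06e-07). Its relative Oli, of the Olig family, was at 169.5 and 131 against 6.52 and 6.96 CPM (log2 fold change 4.47 ± 0.39 SE, edgeR adjusted p = 2.58e-08). The proneural-complex gene ase, which marks neuroblasts and sense organ precursors, was at 432 and 358 against 15.5 and 21.4 CPM (log2 fold change 4.42 ± 0.43 SE, edgeR adjusted p = 1.55e-07). These 3 bHLH genes were called in every fit with 1 library left out.

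The zinc finger gene scrt, a neural member of the Snail superfamily, was at 2958 and 1997 against 119 and 123 CPM (log2 fold change 4.36 ± 0.44 SE, edgeR adjusted p = 2.83e-07). Genes that act in Notch signalling between sister cells also appeared in this group. Hey, a bHLH repressor and Notch target in newborn neurons, was at 80.1 and 48.9 against 4.51 and 4.38 CPM (log2 fold change 3.86 ± 0.47 SE), and insb, which encodes a nuclear inhibitor of Notch target transcription, was at 184 and 157 against 9.04 and 11.7 CPM (4.04 ± 0.43). Root, which encodes rootletin of the ciliary rootlet, was at 296 and 150.2 against 12.6 and 13.1 CPM (4.12 ± 0.60). Hence the top of the list held neuroblast, ganglion mother cell, neuron and sense organ genes side by side. Another 6 protein-coding genes chosen by the same rule carry only systematic names. CG12507 (5.18 ± 0.72, log2 fold change), CG12911 (4.79 ± 0.70), CG31036 (4.52 ± 0.72) and CG45105 (4.04 ± 0.63) were enriched with no overlapping neighbour on their strand. CG18675 (4.6 ± 0.61) overlaps the sodium channel subunit gene tipE, and CG46313 (4.03 ± 0.90) overlaps CG14253, so reads of these pairs may be shared. CG46313 lost its call without Pros-positive replicate 1 and without either Pros-negative replicate, with an edgeR adjusted p of up to 0.141.

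**Figure D2:**
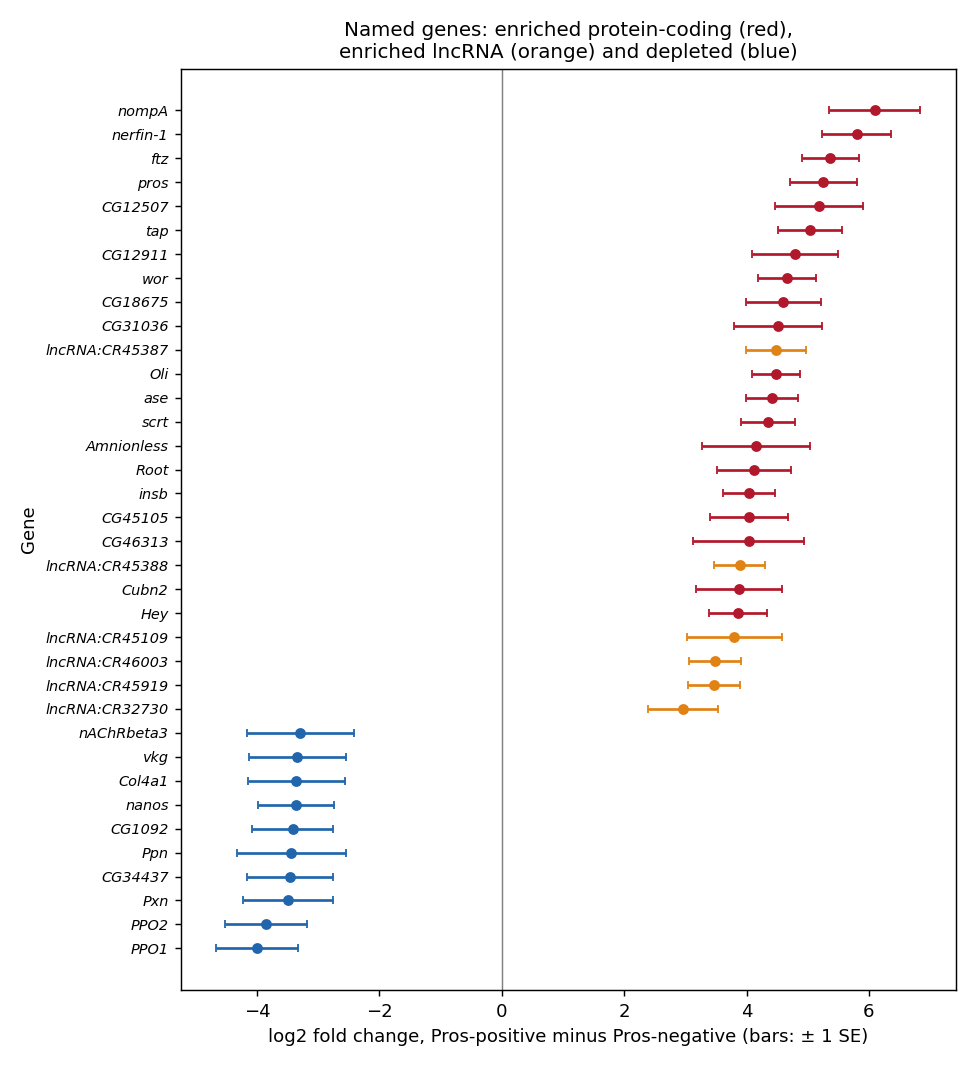
Log2 fold change of Pros-positive over Pros-negative cells at 6-8h AEL (horizontal axis) for each gene named by rule (vertical axis), with points for the fitted values and bars for 1 SE on either side. Protein-coding genes (red) reach from 3.86 for Hey to 6.09 for nompA, lncRNA genes (orange) from 2.96 to 4.48, and depleted genes (blue) from -3.29 for nAChRbeta3 to -4.00 for PPO1.

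The genes listed as neuroblast transcription factors were mostly higher in Pros-positive cells. They include pros, and since the sort used its protein, the enrichment of pros is no independent result. Of 15 neuroblast transcription factor genes, 8 were enriched and none depleted, with a median log2 fold change of 1.75 against -0.07 over all genes. Besides pros, nerfin-1, wor and ase these were sna (2.27), the SoxB genes D (1.97) and SoxN (1.75), and the proneural gene ac (1.69). The pan-neuroblast gene dpn was at 138 and 91.2 against 37.8 and 61.4 CPM and missed the threshold (log2 fold change 1.21 ± 0.36 SE, edgeR adjusted p = 0.0541). The proneural genes l(1)sc (0.42) and sc (0.92), the Snail-family gene esg (1.20), klu (1.06), nab (1.76) and sens (-0.18) were not called either. The largest differences in this group were those of nerfin-1, pros, wor and ase. Without single libraries 6, 8, 4 and 4 of the 8 genes stayed called, and pros, nerfin-1, wor and ase were called in every fit.

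Among 18 genes of asymmetric cell division, 2 were enriched (median log2 fold change 0.65). The gene insc encodes Inscuteable, the adaptor of the apical cortex that orients the spindle, and was at 865 and 635 against 59.6 and 57.4 CPM (log2 fold change 3.68 ± 0.53 SE, edgeR adjusted p = 3.89e-05). The gene mira encodes Miranda, the basal carrier of Prospero, and was at 759 and 567 against 135 and 176 CPM (log2 fold change 2.09 ± 0.50 SE, edgeR adjusted p = 0.0127). The gene stau, whose protein carries prospero mRNA, was at 1583 and 1118 against 450.3 and 518 CPM and missed the threshold (log2 fold change 1.48 ± 0.44 SE, edgeR adjusted p = 0.0564). Hence the neuroblast-specific components insc and mira differed most, whereas general polarity genes lay near no difference. Log2 fold changes were 0.23 for pins, 0.50 for baz, -0.22 for par-6, -0.34 for aPKC and 0.33 for l(2)gl, none of them called. The call of mira was lost without Pros-positive replicate 1 and without either Pros-negative replicate, whereas insc was called in every fit. With median-of-ratios scaling 4 of the 18 genes were enriched.

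Most temporal factors were higher in Pros-positive cells, and they are given in the order in which neuroblasts use them. Hunchback is the first, and hb was at 1347 and 1076 against 110.2 and 120.0 CPM (log2 fold change 3.40 ± 0.49 SE, edgeR adjusted p = 4.17e-05). Krüppel is the second, and Kr was at 763 and 569 against 157 and 187 CPM (log2 fold change 1.95 ± 0.39 SE, edgeR adjusted p = 0.00225). The Pdm genes follow: pdm2 was enriched at 306 and 233 against 91.9 and 98.7 CPM (1.499 ± 0.36), and nub was at 219 and 158 against 84.999 and 96.8 CPM (log2 fold change 1.05 ± 0.34 SE, edgeR adjusted p = 0.0861), short of the threshold. Early and middle factors were thus higher in Pros-positive cells, without overlap between fractions, as were 18.6% of all genes tested. Castor acts late, and cas was at 591 and 299 against 90.1 and 60.5 CPM (log2 fold change 2.56 ± 0.50 SE, edgeR adjusted p = 0.00192). Grainyhead acts last, and grh was at 371 and 214 CPM in Pros-positive and 524 and 571 CPM in Pros-negative cells (log2 fold change -0.91 ± 0.44 SE, edgeR adjusted p = 0.407). It was the single temporal gene with the lower values in Pros-positive cells, and it is also known as an epidermal factor. The switching factor gene svp, which separates the Hunchback and Krüppel windows, was at 265 and 203 against 68.7 and 71.2 CPM (log2 fold change 1.74 ± 0.45 SE, edgeR adjusted p = 0.0243). In all, 5 of 7 temporal genes were enriched (median log2 fold change 1.74). Without single libraries 2, 5, 2 and 1 of the 5 stayed called, and hb was the gene called in every fit.

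**Figure D3:**
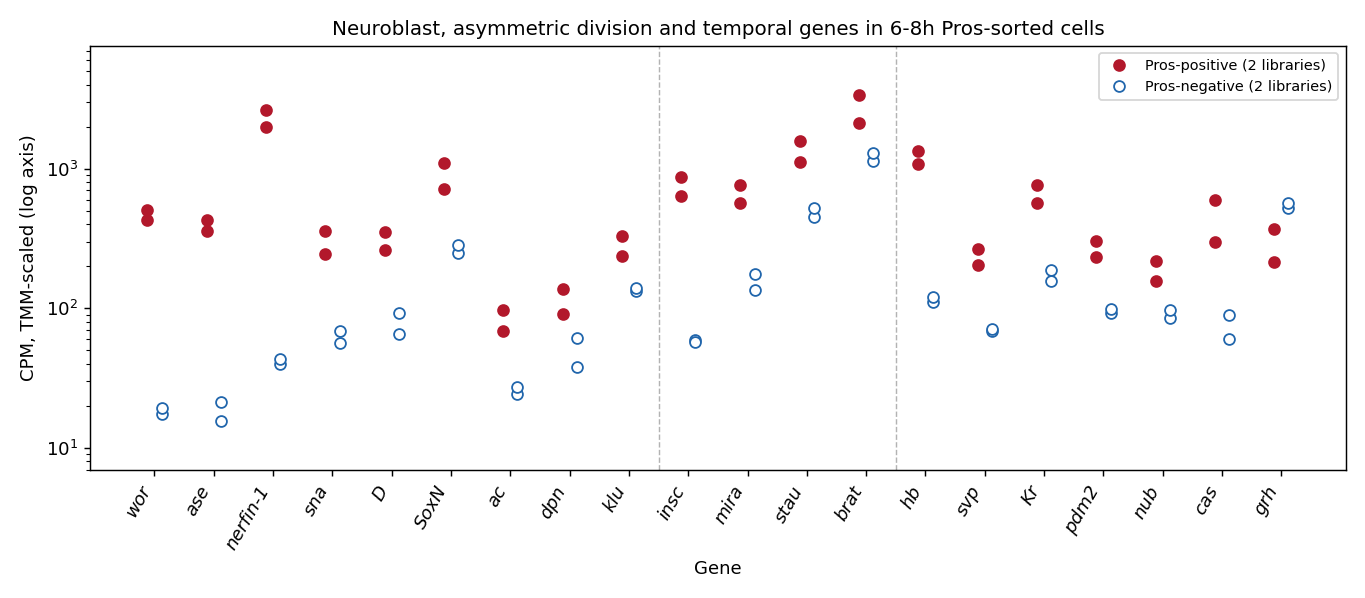
CPM (log axis) in 6-8h AEL cells for genes of neuroblast identity, asymmetric division and the temporal series, separated by dashed lines from left to right, with 1 point per library, filled for Pros-positive and open for Pros-negative. The gap between fractions is widest for nerfin-1, wor and ase, narrower for svp, Kr and pdm2, and turned the other way for grh.

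Genes that pattern the neuroectoderm along its axes differed by group. Of the 3 columnar genes, vnd of the ventral column was at 279 and 220.3 against 24.8 and 28.7 CPM (3.22 ± 0.38, log2) and ind of the intermediate column at 59.9 and 48.4 against 4.34 and 5.41 CPM (3.47 ± 0.37). The dorsal column gene Dr was at 208 and 156 against 70.2 and 96.5 CPM and was not called (log2 fold change 1.13 ± 0.42 SE, edgeR adjusted p = 0.169). Both fractions carried vnd regulatory transgenes, so vnd values come from flies with extra vnd sequence, and its part in the vnd counts was not tested. The columnar genes vnd and ind were called in every fit.

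Among 16 segmentation genes, 4 were enriched and 1 was depleted (median log2 fold change 0.93). Besides ftz the enriched genes were eve (2.002), which marks defined neurons and ganglion mother cells, and the Pax genes gsb (1.45) and gsb-n. The last, gsb-n, a gene of the neuroblast lineages within each segment, was at 161 and 145 against 11.4 and 10.9 CPM (log2 fold change 3.78 ± 0.49 SE, edgeR adjusted p = 1.17e-05). The depleted gene was prd (-1.64), and the segment polarity genes en (-0.32), hh (-0.70) and wg (0.88) were not called. The pair-rule genes run (0.98) and odd (-1.02) were not called either, so members of this class lay on both sides. Without single libraries 3, 4, 2 and 2 of the 4 enriched genes stayed called, the depleted gene in none of these fits, and median-of-ratios scaling called 7 enriched.

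Of 10 Hox genes and cofactors only Antp, which sets thoracic identity, was enriched, at 1208 and 826 against 202 and 221 CPM (log2 fold change 2.26 ± 0.40 SE, edgeR adjusted p = 0.000737). The Hox genes Ubx (0.30), abd-A (-0.04) and Abd-B (-0.53) were not called, and the median of the group was 0.18. The call of Antp was lost without Pros-negative replicate 2. Gap genes and genes of the head and brain were looked at after their values were seen. Of 9 gap genes 5 were enriched, among them gt at 572 and 376 against 44.8 and 54.9 CPM (log2 fold change 3.25 ± 0.47 SE, edgeR adjusted p = 4.52e-05) and the terminal gene tll (1.59). Of 15 head and brain genes 10 were enriched, including the Pax6 genes ey (2.28) and toy (2.16), the homeodomain genes Gsc (2.42), oc (2.12) and Rx (1.99), and the neural progenitor gene erm (2.26). The eye determination genes so (-1.26) and eya (-1.20) were depleted. Without single libraries 5, 10, 8 and 4 of the 10 enriched genes and 0 of the 2 depleted genes stayed called in each fit, and 4, 5, 4 and 2 of the 5 gap genes.

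Of 23 genes of the Notch pathway, 2 were enriched and 1 was depleted, against 2.27% and 1.3% of all genes tested. Their median log2 fold change was 0.07, against -0.07 over all genes. The nuclear effector gene Su(H) was at 153 and 111 against 46.3 and 55.7 CPM (log2 fold change 1.37 ± 0.31 SE, edgeR adjusted p = 0.00847), and E(spl)m6-BFM, a Bearded family gene of the E(spl) complex, was also enriched (1.74). The bHLH repressor gene E(spl)m5-HLH was depleted (-1.32). The receptor gene N (0.12) and the ligand genes Delta (0.13) and Ser (-0.45) were not called. Each of the 3 calls was lost in at least 2 fits with 1 library left out, and none was kept in all 4.

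Most genes of neuronal differentiation were enriched. Of 18 genes, 12 were enriched and none depleted, with a median log2 fold change of 1.89. The RNA-binding protein gene elav, the standard marker of neurons, was at 6072 and 4262 against 433 and 464 CPM (log2 fold change 3.52 ± 0.49 SE, edgeR adjusted p = 2.63e-05). Its relative fne was at 983 and 560.1 against 85.047 and 99.8 CPM (3.06 ± 0.42), and the homeodomain gene onecut was at 428 and 243 against 46.4 and 40.9 CPM (2.94 ± 0.40). In TPM, elav ranked 106 of 13789 protein-coding genes in Pros-positive cells, close to nerfin-1 at rank 102. The sodium channel gene para (3.01), the microtubule protein gene futsch (2.79), the amyloid precursor gene Appl (2.64) and the active zone gene brp (1.91) were enriched as well. VAChT was enriched (2.71), but it overlaps ChAT (1.45, not called) and their reads may be shared. The transporter gene VGlut (0.39) and the GABA synthesis gene Gad1 (-0.35) were not called. Without single libraries 8, 12, 8 and 5 of the 12 genes stayed called, with elav in all 4 fits.

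A wider group of 27 genes of excitability and synapses, chosen after values were seen, held 17 enriched and no depleted genes (median log2 fold change 1.58). Potassium channel genes Shab (2.07), slo (1.86) and SK (1.72), synapsin Syn (2.06), Syt4 (1.99) and the vesicle kinesin gene unc-104 (1.88) were among them. These calls were fragile, since 1, 17, 2 and 0 of the 17 stayed called without single libraries. Axon guidance genes differed less. Of 20 genes 4 were enriched (median 0.51), with the adhesion gene side at 555 and 361 against 60.6 and 63.3 CPM (log2 fold change 2.89 ± 0.48 SE, edgeR adjusted p = 0.000289), its partner gene beat-Ia (1.80), Nrt (2.31) and the guidance cue gene NetB (1.56). The receptors fra (0.68), robo1 (0.48) and robo2 (0.24) and the midline cue gene sli (0.31) were not called. Of the 4 enriched genes, side was called in every fit and the others in the fit without Pros-positive replicate 2 but not in all 4.

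Factors of particular neuron types were enriched in part. Of 15 genes, 5 were enriched (median log2 fold change 0.77): the motor neuron gene Lim3 (2.16), Lim1 (1.51), hkb (2.11), Poxn (1.66) and the neuroblast gene unpg (2.28). The motor neuron gene exex was at 59.956 and 34.9 against 24.7 and 24.3 CPM and was not called (log2 fold change 0.95 ± 0.36 SE, edgeR adjusted p = 0.17). Of 10 atonal-related bHLH genes, tap, Oli and Fer1 (2.71) were enriched and stayed called in every fit. The proneural genes of sense organs, ato (-1.13) and amos (-1.62), had lower values in Pros-positive cells and were not called. Among 11 RNA regulators and related factors, 5 were enriched (median 1.17). They were the Musashi gene msi (2.62), chinmo (2.35), lin-28 (2.07), br (1.72) and lola (2.08). In older neuroblasts Imp and Syp form opposing gradients. Here Imp was at 5670.0 and 3578 against 1932 and 2184 CPM (log2 fold change 1.17 ± 0.45 SE, edgeR adjusted p = 0.194) and Syp at 28.1 and 31.2 against 29.020 and 23.1 CPM (log2 fold change 0.18 ± 0.24 SE, edgeR adjusted p = 1), neither of them called. Without single libraries 3, 5, 2 and 4 of the 5 neuron type genes and 1, 5, 1 and 0 of the 5 RNA regulators stayed called.

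Of 12 glial genes 1 was enriched and none was depleted, against 2.27% and 1.3% of all genes tested. It was repo, the homeodomain gene of lateral glia, at 98.4 and 57.2 against 13.5 and 16.6 CPM (log2 fold change 2.37 ± 0.46 SE, edgeR adjusted p = 0.00178). Both Pros-positive libraries lay above both Pros-negative libraries for 8 of the 12 and below them for 1. These shares were 18.6% and 23.5% over all genes tested. The switch gene gcm was at 248 and 181 against 81.5 and 109 CPM and missed the threshold (log2 fold change 1.18 ± 0.42 SE, edgeR adjusted p = 0.151). The median of the group was 0.59. The call of repo was lost without Pros-positive replicate 1 and without either Pros-negative replicate, and a fit on the 4 libraries alone called 4 of the 12 genes enriched.

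Sense organ genes differed in both directions. Of 9 genes 3 were enriched and 1, eya, was depleted (median log2 fold change 1.14). Besides nompA these were the Pax2 gene sv, which acts in support cells of sense organs, at 385 and 225 against 35.4 and 35.8 CPM (log2 fold change 3.10 ± 0.44 SE, edgeR adjusted p = 3.79e-05), and Rfx, a regulator of ciliated neurons, at 234 and 125 against 25.965 and 21.026 CPM (log2 fold change 2.93 ± 0.35 SE, edgeR adjusted p = 3.73e-06). All 3 were called in every fit, while the depletion of eya was called in none. The mechanosensory channel gene nompC was at 66.2 and 44.8 against 11.7 and 9.22 CPM and was not called (log2 fold change 2.41 ± 0.96 SE, edgeR adjusted p = 0.227). In the fly, sensory neurons are nearly the only somatic cells with cilia. Of 31 ciliary genes, gathered after values were seen, 11 were enriched, none was depleted and all 31 had a positive log2 fold change (median 1.93). Over all genes tested 2.27% were enriched, and 7817 of 17109 had a positive log2 fold change. The forkhead gene fd3F of chordotonal neurons was at 46.8 and 27.1 against 3.32 and 2.22 CPM (log2 fold change 3.74 ± 0.76 SE, edgeR adjusted p = 0.00259). The transition zone gene dila (3.10), the transport subunit genes Cluap1 (3.19) and rempA (2.19), the dynein gene btv (1.81) and Cep290 (2.15) were enriched, too. The genes tctn (3.12) and B9d2 (3.11) overlap on 1 strand and may share reads. Without single libraries 6, 11, 7 and 2 of the 11 stayed called, and a fit on the 4 libraries alone called 21.

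Genes of the cubilin receptor, known from protein uptake in nephrocytes, were also enriched. These genes were grouped after values were seen. Cubn was at 586 and 327 against 32.050 and 33.8 CPM (log2 fold change 3.79 ± 0.41 SE, edgeR adjusted p = 4.41e-07), and its paralogue Cubn2 at 300.5 and 186 against 18.9 and 14.3 CPM (log2 fold change 3.87 ± 0.70 SE, edgeR adjusted p = 0.00087). The gene of their partner, Amnionless, was at 33.2 and 19.6 against 2.16 and 0.794 CPM (log2 fold change 4.16 ± 0.88 SE, edgeR adjusted p = 0.00402) and overlaps CG3625 on its strand. Thus all parts of the receptor were higher in Pros-positive cells, without overlap, as was the case for all 388 enriched genes. Other nephrocyte genes did not follow, with log2 fold changes of -0.90 for sns, 0.19 for kirre, -0.61 for Mec2 and 0.56 for Klf15, none of them called. Amnionless lost its call without Pros-negative replicate 2, where its log2 fold change was 3.60 and its edgeR adjusted p 0.162.

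Cell cycle genes did not separate the fractions as a group. Of 26 genes 1 was enriched and none was depleted (median log2 fold change 0.19). It was dap, which encodes a Cip/Kip inhibitor that stops the cycle before terminal differentiation, at 995 and 726 against 252 and 249.6 CPM (log2 fold change 1.78 ± 0.51 SE, edgeR adjusted p = 0.0441). The call of dap was lost in each fit with 1 library left out. Cyclin genes CycE (-0.15), CycA (0.74) and CycB (-1.34), the phosphatase gene stg (-0.20) and PCNA (0.75) were not called. Of 23 histone H1 gene copies 6 were called enriched, but the copies are nearly identical, share reads and count as 1 observation. All 6 calls were lost without Pros-negative replicate 1. Copies of the H2A, H2B, H3 and H4 genes had medians of 0.65, 0.27, 0.65 and 0.62.

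Growth genes leaned the other way. Of 17 genes of ribosome biogenesis, chosen after values were seen, 8 were depleted, none was enriched and all 17 had a negative log2 fold change (median -1.01). Over all genes tested 1.3% were depleted, and 9252 of 17109 had a negative log2 fold change. The gene Myc, a driver of growth, was at 484 and 278 CPM in Pros-positive and 1033 and 1266 CPM in Pros-negative cells (log2 fold change -1.59 ± 0.42 SE, edgeR adjusted p = 0.0272). The RNA polymerase I subunit gene Polr1A (-1.31) and the nucleolar gene mbm (-1.03), known from larval neuroblasts, were depleted as well. The calls were fragile, since 1, 0, 4 and 0 of the 8 stayed called without single libraries and a fit on the 4 libraries alone called 3. Genes of purine synthesis gave 3 depleted of 7, of which none stayed called in any of those 4 fits. None of the 92 cytoplasmic ribosomal protein genes was called by edgeR (1 at an unadjusted p below 0.05, and 0 higher and 0 lower by DESeq2), and their median was -0.29.

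Of the 28 enriched lncRNA genes, the 6 with the largest log2 fold change among those averaging at least 10 CPM in Pros-positive cells were named by rule. lncRNA:CR45387 (chr3L:18854317-18854622, plus strand) was at 67.997 and 47.7 against 2.55 and 2.63 CPM (log2 fold change 4.48 ± 0.48 SE, edgeR adjusted p = 5.1e-07). It overlaps lncRNA:CR45388, the host of mir-315, which was at 303 and 215 against 19.9 and 15.1 CPM (log2 fold change 3.89 ± 0.41 SE, edgeR adjusted p = 4.32e-07), so the pair may share reads. The host of the neural microRNA mir-124, lncRNA:CR45919 (chr2L:17560813-17566551, plus strand), was at 229.8 and 150.5 against 15.9 and 18.4 CPM (log2 fold change 3.47 ± 0.43 SE, edgeR adjusted p = 4.48e-06). The hosts of these microRNAs were thus higher in Pros-positive cells, and the naming rule required this of both replicates. lncRNA:CR46003 (3.48, overlapping lncRNA:CR46449) and lncRNA:CR32730 (2.96) were also named by the rule, as was lncRNA:CR45109 at 12.2 and 8.93 against 0.679 and 0.835 CPM (3.80), which overlaps 2mit. The last of these lost its call without either Pros-negative replicate (edgeR adjusted p up to 0.0869), and lncRNA:CR32730 without Pros-positive replicate 1 or Pros-negative replicate 1 (up to 0.0748). Of 8 lncRNA genes taken from the text of the study, and so chosen on these samples, 6 were enriched (median log2 fold change 2.94), which is therefore not independent evidence. They include lncRNA:cherub at 123 and 97.5 against 11.3 and 17.8 CPM (2.92 ± 0.46), lncRNA:CR44272 (3.50), lncRNA:CR30009 (2.95) and lncRNA:CR44024 (2.64). lncRNA:CR44978 (0.80) and lncRNA:CR45312 (0.37) were not called.

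Depleted genes were also found in the groups of blood cells, mesoderm, dorsal epidermis and germ cells. The lowest log2 fold changes were those of the prophenoloxidase genes of crystal cells, a blood cell type. PPO1 (FBgn0283437, chr2R:17887220-17889973, minus strand) was at 2.75 and 7.89 CPM in Pros-positive and 71.956 and 99.7 CPM in Pros-negative cells (log2 fold change -4.00 ± 0.66 SE, edgeR adjusted p = 0.000295), and PPO2 at 5.77 and 8.56 against 85.2 and 123 CPM (log2 fold change -3.86 ± 0.67 SE, edgeR adjusted p = 0.000536). Both stayed called without any single library. PPO3, of lamellocytes, was not called (-0.68). Of 9 haemocyte genes 5 were depleted and none was enriched (median log2 fold change -1.76). The peroxidasin gene Pxn was at 28.5 and 19.1 against 279 and 259 CPM (log2 fold change -3.50 ± 0.74 SE, edgeR adjusted p = 0.00379), the papilin gene Ppn at 686 and 257 against 5494 and 4727 CPM (log2 fold change -3.44 ± 0.88 SE, edgeR adjusted p = 0.022), and the type IV collagen gene Col4a1 at 196 and 89.8 against 1476 and 1455 CPM (log2 fold change -3.36 ± 0.80 SE, edgeR adjusted p = 0.0112). The companion collagen gene vkg (-3.35) and the scavenger receptor gene crq (-1.67) were depleted, too. In Pros-negative cells Ppn was among the most abundant messages, ranking 138 of 13789 by TPM. Few of these calls were stable, since 0, 0, 1 and 1 of the 5 stayed called without single libraries. Hml, made by mature haemocytes, was at 5.81 and 25.6 against 34.5 and 18.9 CPM, where the fractions overlapped.

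Of 13 genes of mesoderm and muscle 5 were depleted (median -0.90). They were the early mesoderm gene twi (-2.07), the muscle regulator Mef2 (-1.97), the heart gene tin (-2.31) and the visceral mesoderm genes bap (-2.37) and bin. The last, bin, was at 13.7 and 11.1 against 52.7 and 77.2 CPM (log2 fold change -2.39 ± 0.35 SE, edgeR adjusted p = 5.31e-05) and was called in every fit. Muscle structural genes such as Mhc (-0.60) were not called. Thus regulators of early mesoderm, and not contractile genes, made up the depleted members at this age. Of 13 epidermal and tracheal genes 6 were depleted (median -1.33), among them the T-box genes Doc1 (-1.81), Doc2 (-1.91) and Doc3 (-2.12), the GATA gene pnr (-2.02), the signal gene dpp (-1.54) and the tracheal gene trh (-1.33). The 3 Doc genes, which lie together and act in dorsal ectoderm and amnioserosa, were called in every fit. Of 4 germ cell genes 3 were depleted. The gene nanos, a translational repressor of primordial germ cells, was at 22.025 and 11.5 against 251 and 95.9 CPM (log2 fold change -3.37 ± 0.62 SE, edgeR adjusted p = 0.00109), followed by pgc (-2.67) and vas (-1.55). Of 7 genes listed under endoderm and midgut 2, srp (-1.71) and byn (-1.80), were depleted. Of these, srp is also among the haemocyte markers, and the endoderm markers GATAe and fkh were not called. Without single libraries 4, 2, 5 and 2 of the 5 mesoderm genes, 4, 3, 4 and 3 of the 6 epidermal genes, 2, 1, 1 and 2 of the 3 germ cell genes and 0 of the 2 endoderm genes in each fit stayed called.

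The rule also named CG34437 (1.53 and 1.995 against 18.8 and 20.4 CPM, -3.47), CG1092 (2.53 and 1.81 against 22.6 and 23.8 CPM, -3.42) and the nicotinic receptor subunit gene nAChRbeta3 (5.86 and 2.76 against 42.3 and 41.6 CPM, -3.29). The last was a receptor subunit gene with lower values in the neural fraction. Its call, like those of Ppn, Col4a1 and vkg, was lost in each fit with 1 library left out (largest edgeR adjusted p 0.298, 0.271, 0.187 and 0.185 in that order), and those of Pxn, CG34437 and CG1092 in at least 1 (0.0889, 0.0839 and 0.0502).

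**Figure D4:**
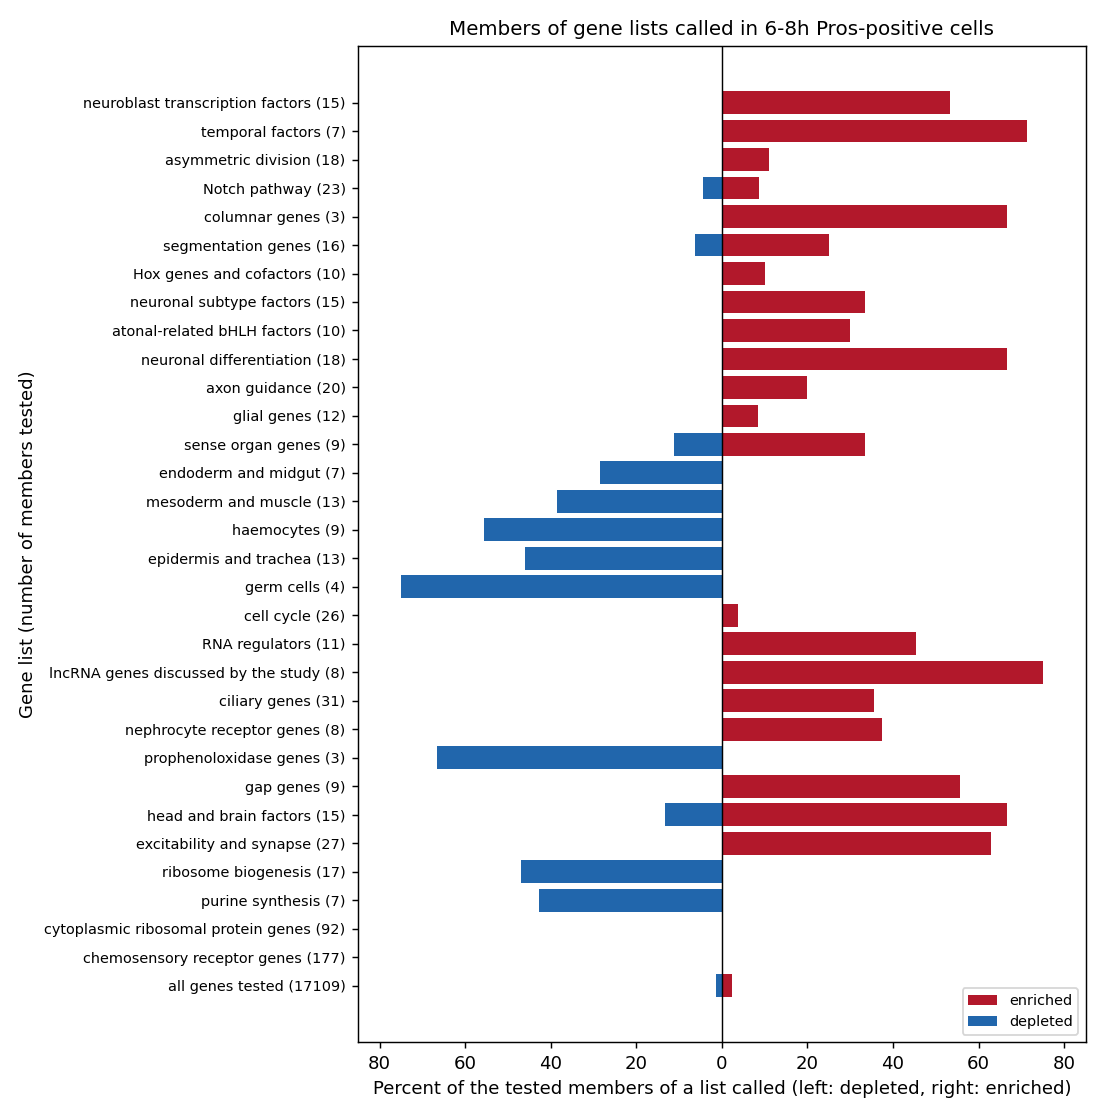
Percent of the tested members of each gene group that were enriched (red, to the right) or depleted (blue, to the left) in Pros-positive cells at 6-8h AEL, with the number tested in brackets and all genes in the bottom bar. Groups of the nervous system extend to the right and those of blood, mesoderm, epidermis, germ cells and ribosome biogenesis to the left, against 2.27% and 1.3% over all genes.

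The enrichment was next set beside that of the same sort at 4-6h AEL, when neuroblasts first delaminate. Of the 388 genes enriched at 6-8h AEL, 387 had the same sign at 4-6h AEL and 315 were called there, which is 81.2% of the genes here and 51.1% of the 616 there, where 3.6% of all genes tested were enriched. Of the 223 depleted genes, all 223 had the same sign and 156 were called, 70.0% of those here and 41.8% of the 373 there, where 2.18% of all genes were depleted. No gene was called in opposite directions. The libraries of the 2 times are separate, so these counts share no sample.

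A direct test of the change in enrichment between the times called 1 gene higher at 6-8h AEL (0.00584%) and none lower. At an unadjusted p below 0.05 there were 145 genes in edgeR, and DESeq2 called 8. The gene was ftz. At 4-6h AEL it was at 259.7 and 426 CPM in Pros-positive and 66.4 and 103 CPM in Pros-negative cells (log2 fold change 2.02), and at 6-8h AEL at the values above (log2 fold change 5.37). The enrichments differed by 3.35 ± 0.56 SE (edgeR adjusted p = 0.0265). The level in Pros-positive cells was of the same order at both times, and the level in Pros-negative cells was the lower one at 6-8h AEL. This call was lost in a fit of the 8 libraries alone (edgeR adjusted p = 0.537), with the replicate number as a block (0.055), and without 4-6h Pros-negative replicate 2 (1), 4-6h Pros-positive replicate 2 (0.0652), 6-8h Pros-negative replicate 2 (1) or 6-8h Pros-positive replicate 1 (0.267). Without 4-6h Pros-positive replicate 1, 26 genes were called.

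For the temporal factors no change with time passed the test (edgeR adjusted p = 1 for each gene named here). The enrichment of hb was 2.60 at 4-6h and 3.40 at 6-8h AEL, a difference of 0.80 ± 0.63 SE. That of cas was 3.46 and 2.56 (-0.89 ± 0.67), and that of svp was 0.73 and 1.74 (1.01 ± 0.63). For eve, whose stripes fade as its neuronal expression begins, the enrichment was 0.24 and 2.002 (1.77 ± 0.58). The standard errors allow differences of more than 1 log2 unit for each of these genes, so this is a limit of the design and does not show equal enrichment.

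Elav-positive neurons sorted at the same age formed the other comparison. Since the Elav libraries came from other fly lines, population and line cannot be told apart there. Of the 388 genes enriched here, 320 were also enriched in Elav-positive cells (82.5% of those here and 20% of the 1598 there, where 9.34% of all genes tested were enriched), and 194 of the 223 depleted genes were depleted there (87.0% here and 14.8% of the 1312 there, where 7.67% of all genes were depleted). In all 3 comparisons 267 genes were enriched, and 20 passed the thresholds at 6-8h in the Prospero sort but in neither of the other comparisons, among them mira, svp, SoxN and ac. These counts rest on thresholds, and the difference itself was therefore tested. None of these 4 genes differed in enrichment from 4-6h AEL by the test given above. Against the Elav sort mira (2.72 ± 0.69 SE, edgeR adjusted p = 0.0163) and ac passed the test, whereas svp (0.69 ± 0.62 SE, edgeR adjusted p = 0.976) and SoxN (1.51 ± 0.62 SE, edgeR adjusted p = 0.252) did not.

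The enrichment differed between the populations for 770 genes, of which 222 were higher in the Prospero sort (1.3%) and 548 lower (3.2%). Of 15 neuroblast transcription factor genes 9 were higher and none lower. In the Elav sort itself 5 of the 15 were enriched and 5 depleted (median log2 fold change -0.06). The 9 include pros, whose protein was used for the Prospero sort. The gene wor was at 65.7 and 64.3 CPM in Elav-positive and 66.2 and 69.7 CPM in Elav-negative cells, so its enrichment there was -0.06 against 4.66 here (difference 4.72 ± 0.60 SE, edgeR adjusted p = 6.54e-06). For pros the Elav sort gave 795 and 1814 against 567 and 637 CPM (difference 4.14 ± 0.67), and for ac, which was enriched here, 7.33 and 9.90 against 47.4 and 37.991 CPM (4.00 ± 0.47). Neuroblast genes thus had the higher enrichment in the Prospero sort. The others were ase (2.95), sc (2.75), dpn (2.45), l(1)sc (2.23), D (2.10) and klu (2.05). Of 26 cell cycle genes 8 were higher and none lower, although only dap had been enriched against the Pros-negative cells. In the Elav sort itself 12 of the 26 were depleted and 0 enriched, with a median log2 fold change of -1.32 there against 0.19 here.

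Neuronal genes had the lower enrichment in the Prospero sort. Of 18 neuronal differentiation genes 11 passed the test in this direction, as did 20 of the 27 genes of excitability and synapses. For fne the Elav sort gave 3519 and 2918 against 33.5 and 20.7 CPM, an enrichment of 6.89 against 3.06 here (difference -3.83 ± 0.57 SE, edgeR adjusted p = 4.63e-05). The active zone gene brp gave 868 and 2023 against 34.995 and 16.983 CPM there (5.80, difference -3.89 ± 0.64). The levels of these genes were thus higher in Elav-positive than in Pros-positive libraries and lower in Elav-negative than in Pros-negative libraries. For elav the Elav sort gave 8451 and 9872 against 601 and 570.3 CPM, an enrichment of 3.97 against 3.52 here and the difference did not pass the test (-0.44 ± 0.62 SE, edgeR adjusted p = 1). Neither did those of the Notch target gene Hey (-1.75 ± 0.60 SE, edgeR adjusted p = 0.111) and of Oli (-0.20 ± 0.48). None of the 31 ciliary genes differed in enrichment between the sorts by this test (edgeR, 1 at an unadjusted p below 0.05; DESeq2 called 0 higher and 0 lower). In the Elav sort 13 of them were enriched (median 2.23), against 11 here (median 1.93), and a p that misses the threshold does not show equal values.

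**Figure D5:**
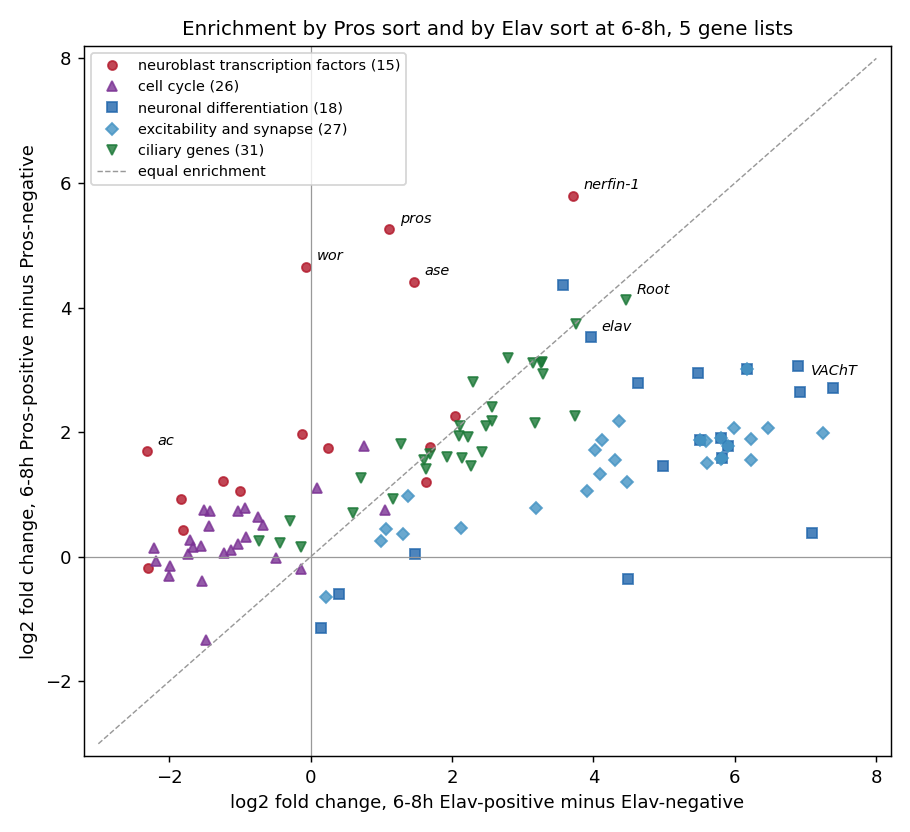
Log2 fold change at 6-8h AEL in the Elav sort (horizontal axis) and in the Prospero sort (vertical axis) for members of 5 gene groups, 1 point per gene, with a dashed line where both are equal. Neuroblast and cell cycle genes lie mainly above the line, neuronal and synaptic genes mainly below it, and ciliary genes on both sides of it.

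A few genes, 12 of the 388 (3.09%), were enriched here and depleted in the Elav sort, where 7.67% of all genes tested were depleted. Of the 12, 6 are near-identical histone H1 copies, and the others were ac, upd1, sca, sog, Cad74A and CG42662. These were singled out after their values were seen. The cytokine gene upd1 was at 224 and 169 CPM in Pros-positive and 31.1 and 31.2 CPM in Pros-negative cells (log2 fold change 2.65 ± 0.34 SE, edgeR adjusted p = 8.36e-06), and at 8.69 and 8.30 against 51.7 and 45.4 CPM in the Elav sort (-2.51). The secreted protein gene sca, which acts in the spacing of neural precursors, was at 753 and 499 against 188 and 242 CPM (1.54 ± 0.43) here and at 91.1 and 162 against 302 and 404 CPM (-1.48) there. A single gene, the homeobox gene otp, was depleted here (-1.14) and enriched there (1.47). It made up 0.448% of the 223 depleted genes, against 9.34% of all genes tested that were enriched there. Opposite calls were thus less frequent than these shares over all genes.

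The largest differences between the sorts were named by rule. For Cubn2 the Elav sort gave 13.8 and 3.72 against 21.9 and 23.1 CPM, so that its enrichment was higher by 5.23 ± 0.94 SE here (edgeR adjusted p = 0.000522). Its paralogue Cubn gave 31.8 and 32.974 against 36.2 and 63.3 CPM there (difference 4.41 ± 0.54). The cubilin genes were thus higher in Pros-positive cells and not in Elav-positive cells. At the other end was twit, which encodes a protein of the Ly6 family, at 42.1 and 76.972 against 1.03 and 0.165 CPM in the Elav sort and 3.67 and 6.08 against 4.70 and 6.147 CPM here (difference -6.76 ± 0.87 SE, edgeR adjusted p = 7.33e-06). Of the remaining genes that the rule named, CG12134, 18SrRNA:CR41548 and lncRNA:CRG had 0 reads in at least 1 Elav-sorted library. These genes and CG32939 are given with their values after the report.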

How the data were processed

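RNA was measured in 48 libraries of sorted embryo cells, of which 4 form the comparison described here. The authors sorted fixed cells by flow cytometry with an antibody to Prospero, depleted ribosomal RNA, sequenced stranded paired-end libraries and quantified transcripts with Salmon 0.8.1 against BDGP release 6 with a FlyBase annotation. RSEM 1.3.0 is also named in the submitters' processing notes. Each deposited file lists, per transcript, an estimated count without normalization and the TPM that the authors' tool scaled to one total for every library. The authors also deposited 12 tables of their own DESeq2 comparisons, with a baseMean signal, log2 fold changes and adjusted p-values, and these were not used.

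Estimated counts and TPM were summed to 17257 genes of Ensembl release 115 (BDGP6.54) and the counts rounded. Of 34428 transcripts 34123 were matched, and the rest held 0.321% to 0.358% of reads in the 4 libraries. Library totals over the series ranged from 18120862 to 113452420. Reads carry no molecular identifiers. Counts were fitted in R 4.3.3 with edgeR 4.0.16 (quasi-likelihood, TMM, filterByExpr, 48 libraries, 24 groups, 17109 genes, 24 residual degrees of freedom, common dispersion 0.362), with limma 3.58.1 and, as an alternative, DESeq2 1.42.0. CPM used the TMM factors. A call needed an adjusted p (Benjamini-Hochberg) under 0.05 and a log2 fold change beyond 1 in size. Reads of genes that overlap on a strand, and of near-identical copies, cannot be assigned with certainty.

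Enrichments were compared between times and between populations as contrasts of the same fit. The alternatives were median-of-ratios scaling, no count filter, DESeq2, only the libraries compared, counts from length-scaled TPM, the replicate number as a block, the chemosensory receptor level as a covariate, and each library left out in turn. Named genes were the 3 markers, and, among genes without overlap between fractions and averaging 10 CPM or more in the higher fraction, the 20 protein-coding and 6 lncRNA genes with the largest and the 10 genes with the lowest log2 fold change. In each contrast the 3 called genes at either end were added, and members of the gene lists could be named. Members and lists were chosen with earlier results of these data known. Lists described as chosen after values were seen came later still. The procedure was tested on simulated data. Promoter sequences and motifs were not analysed here.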

Additional observations from a re-analysis of the deposited data

Results flagged for a closer look

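The enrichment of ftz in Pros-positive cells was higher at 6-8h than at 4-6h AEL by 3.35 on the log2 scale (edgeR adjusted p = 0.0265), with both Pros-positive libraries above both Pros-negative libraries at each time. The same kind of test called 770 genes for the difference in enrichment between the Prospero and the Elav sort at 6-8h AEL. The naming rule took 6 of them, 3 from either end. For Cubn2 the difference was 5.23 (edgeR adjusted p = 0.000522) and for twit -6.76 (7.33e-06), with the values given above.

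CG12134 differed by 10.94 (edgeR adjusted p = 0.0305). It had 0 reads in both Elav-positive libraries against 16.8 and 16.9 CPM in the Elav-negative libraries, so it was at least 167-fold lower in Elav-positive cells, with a floor of 3 reads per library, and it was at 7.12 and 4.27 against 15.8 and 17.3 CPM in the Prospero sort. CG32939 differed by 5.29 (edgeR adjusted p = 0.0364), with 1.70 and 1.33 against 16.1 and 1.79 CPM in the Elav sort, where the Elav-negative replicates lay far apart, and 20.1 and 13.2 against 2.33 and 2.69 CPM in the Prospero sort. The ribosomal gene 18SrRNA:CR41548 differed by -15.18 (edgeR adjusted p = 0.000225). It was at 201 and 304 CPM in Elav-positive cells, with 0 and 1 reads in the Elav-negative libraries, and at 134 and 119 against 132 and 451 CPM in the Prospero sort. Ribosomal RNA was depleted from these libraries. The gene lncRNA:CRG, which overlaps CASK, differed by -14.83 (edgeR adjusted p = 0.00172). It had 0 reads in both Elav-negative libraries and 129 and 214 CPM in the Elav-positive libraries, so it was at least 2250-fold higher in the latter, and it was at 29.9 and 14.6 against 10.6 and 11.5 CPM in the Prospero sort. Fitted differences of genes with groups at 0 depend on the prior count and are no bounds. The part of single libraries, of the fly lines and of read assignment in these values was not tested.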

How the results depend on the processing

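Every gene called in a comparison kept its direction under each alternative run. Of the 769 named genes and members of gene groups, 269 changed sign between the fractions under at least 1 alternative, among them N, Delta and CycE, and none of these was called between the fractions. Over all genes tested, the log2 fold change had a median between -0.26 and 0.01. The number of enriched genes was 388, and it was 681 with DESeq2, 681 with only the libraries compared and 604 with the receptor covariate. Leaving out each Prospero library in turn gave 109 to 385. The number of depleted genes was 223, and it was 477 with DESeq2, 359 with median-of-ratios scaling, 448 with only the libraries compared, 575 with the receptor covariate and 35 to 72 with 1 library left out. The enriched share of calls was 63.5%, and 51.2% with the receptor covariate and 91.7% without Pros-positive replicate 2. For the change in enrichment between times 1 gene was called, against 8 with DESeq2, 0 with only the libraries compared, 0 with the replicate block, 0 with the crossed replicate block and 0 to 26 with 1 library left out. For the contrast of the Prospero and Elav sorts 770 genes were called, against 1499 with DESeq2, 467 with only the libraries compared, 1553 with the receptor covariate and 412 to 786 with 1 library left out. The causes of these shifts were not tested. With the replicate block the counts were 373 enriched, 243 depleted and 894 between the sorts. The labels do not pair the replicates, and their deviations had a correlation of -0.193 between fractions. The crossed block, chosen after seeing the data, gave 364, 232 and 899. Of the 388 enriched and 223 depleted genes, 321 and 159 were called in each of the other 7 settings. Depth was at least 30613599 reads in each of the 4 libraries, and with 2 replicates a gene had to differ by far more than its counting error to be called.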

Other observations

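Some further differences between the Prospero and Elav sorts at 6-8h AEL concerned members of the segmentation and Notch pathway groups. Of 16 segmentation genes 4 had the higher enrichment in the Prospero sort and none the lower. Of 23 Notch pathway genes 5 had the higher and 1 the lower, against 1.3% and 3.2% of all genes tested. The genes given here were singled out after their values were seen. The signal gene wg had a higher enrichment in the Prospero sort by 2.88 ± 0.48 SE on the log2 scale (edgeR adjusted p = 0.00023), with 319 and 216 against 139 and 152 CPM here and 36.1 and 53.3 against 184 and 174 CPM in the Elav sort. The Notch target gene E(spl)mgamma-HLH was higher by 2.50 ± 0.55 (edgeR adjusted p = 0.00401), with 269 and 171 against 172 and 216 CPM here and 50.4 and 58.2 against 306 and 236 CPM there. Neither gene was called between the fractions of the Prospero sort itself.

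The purine synthesis gene Paics was at 75.3 and 797 CPM in the Pros-positive and 390.4 and 454 CPM in the Pros-negative replicates, so the Pros-positive replicates stood apart from each other and on either side of the Pros-negative values. Its pathway neighbours did not show a gap of this size, with Gart at 11.8 and 15.7 against 28.1 and 28.2 CPM and Adsl at 28.2 and 18.8 against 47.6 and 50.6 CPM.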
